A study of Caenorhabditis elegans with 2 samples.

Results

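Peaks of an anti-GFP chromatin immunoprecipitation that lay at promoters facing a single direction were described here, in 2 biological replicates of whole L4 hermaphrodite larvae of Caenorhabditis elegans. The strain, OP470 with genotype unc-119(tm4063) III; wgIs470, carries an integrated transgene that expresses duxl-1 with a GFP-FLAG tag at its C-terminal end, and both replicates share it. The sources used here do not give the promoter that drives the transgene or the cells that express it. No untagged or control precipitation is analysed here, so whether DUXL-1 itself is bound at a peak was not tested. The members were chosen by measured values, since a peak had to be among the regions of the pooled replicates whose signal passed the authors' threshold. Of 1560 such peaks on the autosomes, 578 (37.1%, 95% Wilson interval 34.7 to 39.5) were members. Each had its summit more than 100 bp from any tRNA, snoRNA or snRNA gene. Each summit also lay between 1000 bp upstream and 200 bp downstream of starts of protein-coding transcripts on a single strand.

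The remaining autosomal peaks fell into 4 other classes, which were 254 peaks at divergent promoters, 270 inside gene bodies, 233 at small RNA genes and 225 between genes. The files hold no read counts, so depth is unknown. The intervals given for shares cover counting error only. The signal of a peak is the enrichment assigned by the authors' peak caller, and it was used only to describe and rank peaks. All of the results below describe 1 strain at 1 stage, and no groups of samples were compared.

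A peak was placed at a one-direction promoter when only promoter windows of a single strand held its summit. At a divergent promoter, windows of both strands held it. The classes thus rest on distance, and the upstream neighbour of a one-direction promoter can still point away from it. In C. elegans many genes sit in operons, in which neighbouring genes on the same strand share the promoter of the first gene. Many messages also receive a spliced leader by trans-splicing, and the annotated start can then be the trans-splice site rather than the first transcribed base. Homeodomain proteins such as DUXL-1 are known as a class for binding short words built on TAAT.

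Short words and runs of bases recurred at the summits of different genes. The first set shows members whose 101-bp summit window holds the words GCGTGTT and AAGTGT (reverse complements AACACGC and ACACTT), which were picked out after the windows of the strongest members had been read. The windows are those of rpl-3 at chrIII:3867524-3867624 (plus strand), rpl-35 at chrIII:7854643-7854743 (plus strand), cdc-48.1 at chrII:10563525-10563625 (minus strand) and cox-5A at chrIII:12905150-12905250 (plus strand), in build ce11. Each runs 5′ to 3′ on the strand of its gene, and capitals mark either word on either strand.
rpl-3: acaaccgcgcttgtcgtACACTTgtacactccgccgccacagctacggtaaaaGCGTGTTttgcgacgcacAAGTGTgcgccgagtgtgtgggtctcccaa
rpl-35: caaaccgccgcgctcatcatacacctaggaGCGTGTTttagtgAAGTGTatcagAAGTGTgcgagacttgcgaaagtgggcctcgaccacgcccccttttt
cdc-48.1: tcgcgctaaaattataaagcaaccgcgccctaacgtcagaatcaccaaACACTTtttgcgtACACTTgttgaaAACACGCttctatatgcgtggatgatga
cox-5A: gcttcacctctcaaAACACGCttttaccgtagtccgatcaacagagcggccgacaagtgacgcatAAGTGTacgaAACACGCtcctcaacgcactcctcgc

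The second set shows members with the word CTGCGTC (reverse complement GACGCAG), which had the smallest p of 13 words tested. They are the 4 strongest found in both replicates whose window overlaps no annotated exon. The stronger peaks at ceh-83 and Y39B6A.43 hold the word too, but their windows reach into an exon and are not printed. They lie at Y49F6C.8 at chrII:3370207-3370307 (minus strand), ntl-11 at chrIV:15471553-15471653 (minus strand), sec-61.G at chrV:10897330-10897430 (minus strand) and eelo-2 at chrIV:17249862-17249962 (plus strand). Capitals mark the word on either strand.
Y49F6C.8: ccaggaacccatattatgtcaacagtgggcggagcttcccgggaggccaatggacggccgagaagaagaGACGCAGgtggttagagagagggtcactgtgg
ntl-11: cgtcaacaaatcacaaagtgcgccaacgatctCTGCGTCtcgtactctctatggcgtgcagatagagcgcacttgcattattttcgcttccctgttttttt
sec-61.G: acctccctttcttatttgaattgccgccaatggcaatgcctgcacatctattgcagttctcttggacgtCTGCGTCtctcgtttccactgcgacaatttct
eelo-2: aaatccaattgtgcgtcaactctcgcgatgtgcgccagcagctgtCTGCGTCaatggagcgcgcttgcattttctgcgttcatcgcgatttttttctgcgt

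The third set shows strong members with a purine repeat, the word GAGAGA (reverse complement TCTCTC), and without CTGCGTC. They lie at gbas-1 at chrII:2503837-2503937 (plus strand), K12H4.5 at chrIII:8043934-8044034 (plus strand) and fbxb-97 at chrII:1848286-1848386 (minus strand). The peaks at fbxc-19 (399.6) and K02E2.11 (249) hold the word too, but their windows reach into an exon and are not printed.
gbas-1: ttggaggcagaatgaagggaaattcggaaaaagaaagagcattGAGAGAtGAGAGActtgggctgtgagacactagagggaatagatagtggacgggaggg
K12H4.5: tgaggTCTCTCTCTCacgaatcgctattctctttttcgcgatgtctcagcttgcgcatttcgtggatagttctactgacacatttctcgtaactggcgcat
fbxb-97: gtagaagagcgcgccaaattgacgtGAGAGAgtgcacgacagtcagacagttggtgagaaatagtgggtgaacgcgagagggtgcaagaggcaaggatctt

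The last 2 sets show runs of 10 bases that recur word for word upstream of different genes. The run TCCGAGAGGA, or its reverse complement TCCTCTCGGA, is in capitals at F48A11.4 at chrII:216733-216833 (minus strand), cept-2 at chrV:14347397-14347497 (plus strand) and npp-8 at chrIV:1595938-1596038 (minus strand). The peak at cpn-3 (195), stronger than that at npp-8, holds the run too and is not printed.
F48A11.4: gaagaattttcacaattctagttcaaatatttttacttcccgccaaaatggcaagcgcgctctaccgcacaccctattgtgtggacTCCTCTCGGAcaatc
cept-2: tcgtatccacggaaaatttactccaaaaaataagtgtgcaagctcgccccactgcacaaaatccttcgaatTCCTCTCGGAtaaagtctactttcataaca
npp-8: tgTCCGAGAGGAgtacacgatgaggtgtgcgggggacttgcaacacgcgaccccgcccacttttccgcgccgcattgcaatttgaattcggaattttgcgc

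The run AAACGCGCCA, or its reverse complement TGGCGCGTTT, is in capitals at fust-1 at chrII:7152106-7152206 (plus strand), npp-20 at chrIV:1496096-1496196 (minus strand) and nduf-11 at chrII:11345766-11345866 (minus strand). Peaks stronger than those at npp-20 and nduf-11 hold the run too and are not printed. Those at eif-3.C (258), cyc-1 (162) and phm-2 (124) have windows free of exons. The windows at F26F2.7 (151) and Y94H6A.3 (114) reach into an exon. All sequences were read from the RefSeq sequence of WBcel235, the assembly that the name ce11 stands for. None of the windows printed overlapped an annotated exon of a protein-coding transcript.
fust-1: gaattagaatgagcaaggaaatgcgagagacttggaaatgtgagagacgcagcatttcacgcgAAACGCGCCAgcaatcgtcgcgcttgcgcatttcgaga
npp-20: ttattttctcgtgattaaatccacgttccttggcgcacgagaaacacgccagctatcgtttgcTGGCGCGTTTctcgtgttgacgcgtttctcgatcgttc
nduf-11: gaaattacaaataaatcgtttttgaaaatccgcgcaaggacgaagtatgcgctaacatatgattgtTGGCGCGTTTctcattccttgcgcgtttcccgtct

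The 3 strongest members lay upstream of 2 ribosomal protein genes and a gene of protein turnover. The highest pooled signal was 853 at rpl-3, a protein of the large ribosomal subunit, with 446 in replicate 1 and 407 in replicate 2. Its summit lay 280 bp upstream of the start. The second was rpl-35, also of the large subunit, with a pooled signal of 791 and replicate signals of 403 and 375. The third, cdc-48.1, encodes an ATPase that pulls ubiquitinated proteins out of complexes and membranes. Its pooled signal was 638, with 304 in replicate 1 and 342 in replicate 2. The pooled signal was close to the sum of both replicate signals in these members, so it is not a mean of them.

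Next in order was ceh-83, a homeobox gene, at a pooled signal of 569 and with replicate signals of 286 and 263, its summit 26 bp upstream of the start. Y49F6C.8 followed at 468, with 225 and 226 in the replicates. The peak at cox-5A, a subunit of cytochrome c oxidase, reached 448, with 244 and 192 in the replicates. Those of ntl-11, a subunit of the CCR4-NOT deadenylase complex, and wwp-1, a HECT-type ubiquitin ligase, reached 417 and 412. The F-box gene fbxc-19 had 399.6, and its summit lay in an exon outside the coding sequence of another gene. Y39B6A.43 had 366, and sec-61.G, a subunit of the channel that moves new proteins into the endoplasmic reticulum, had 355. In all of these members both replicates had a candidate in their own top list (defined below), which the choice of named genes required.

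The other 14 of the 25 strongest members found in both replicates had pooled signals from 259.8 at scc-2 to 348 at eelo-2. They included his-37, a histone H4 gene, at 334, cbp-1, a histone acetyltransferase of the CBP and p300 family, at 306, and the alpha-tubulin gene tba-2 at 304. They also included ddp-1, a protein of mitochondrial import, at 285, ints-4, a subunit of the Integrator complex, at 276, and lin-9, a subunit of the DRM complex, at 272. The RNA polymerase II subunit rpb-11 had 269. The remainder were gbas-1 (339), F48A11.4 (299.6), sor-1 (298), K12H4.5 (294) and Y25C1A.8 (286). Of these 25 members, 18 had their summit within 300 bp upstream of the start. The replicates differed most at gbas-1, with 106 in replicate 1 and 231 in replicate 2, and at Y25C1A.8, with 196 and 88.9.

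**Figure D1:**
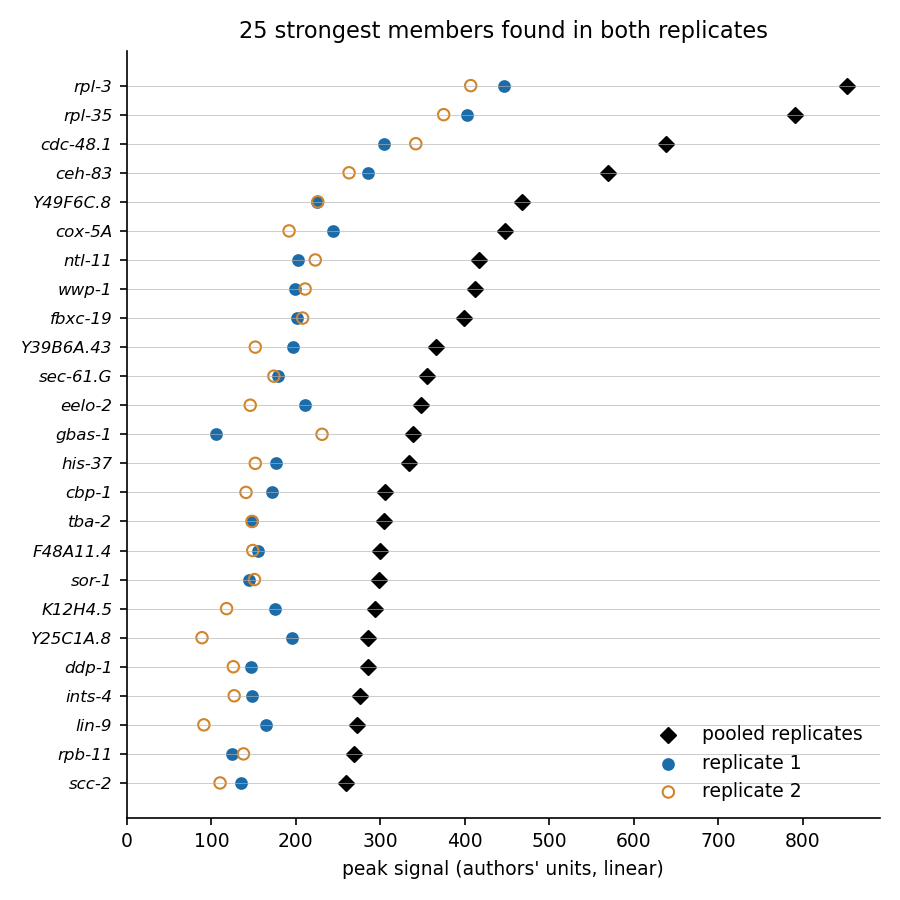
Pooled (black diamonds), replicate 1 (filled circles) and replicate 2 (open circles) signal of the 25 strongest members found in both replicates, in the peak caller's linear units, ordered by pooled signal. Both replicate signals lie well left of the pooled one throughout, and they lie furthest apart at gbas-1 (106 and 231) and Y25C1A.8 (196 and 88.9).

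Signals of the members ranged from 65.0 to 853, with a median of 91.7 and quartiles of 73.5 and 126. The median was 108 at divergent promoters, 77.3 inside gene bodies, 87.6 between genes and 113 at small RNA genes. The threshold chose all of these, so the differences were not tested. Just inside the threshold were the peaks at vps-22 (65.0), C50B8.5 (65.0) and T24E12.3 (65.1). Just outside it, among pooled candidates at promoters of the same kind, were tre-2, cdgs-1 and Y41C4A.9, all at 65.0. Neither duxl-1 nor unc-119 had a member in its promoter window.

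Slightly fewer than 1 in 2 members was a strong peak in each replicate on its own. Each replicate's top list was made of its strongest candidates, as many as the thresholded list has peaks. A member was called found in a replicate if it shared 1 bp or more with a candidate on that list. In both replicates 277 members were found (47.9%, interval 43.9 to 52.0), against 161 of 254 peaks at divergent promoters (63.4%, 57.3 to 69.1) and 77 of 270 inside gene bodies (28.5%, 23.5 to 34.2). The thresholded list was made from these replicates, so these shares describe the lists and were given no test. Among the 145 members with the highest signal 138 were found in both, and among the 145 with the lowest signal 14 were. Of the 144 members ranked next to the strongest set 95 were found in both, and of the 144 ranked next to the weakest set 30 were. In neither replicate were 57 members found, 40 of them in the weakest set.

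A candidate of any rank was present in both replicates for 557 members, or 96.4%. Over these the signal in replicate 1 ranged from 9.26 to 446 with a median of 48.2, and the signal in replicate 2 from 8.03 to 407 with a median of 42.5. The ratio of replicate 1 to replicate 2 had a median of 1.11 and quartiles of 0.792 and 1.65. It was above 2 in 92 members and below 0.5 in 52. Spearman's rho between the replicates was 0.384 across the 557 members and 0.617 across the 277 found in both, as a description across peaks of the same libraries. Summits of both candidates lay a median of 30 bp apart, and within 50 bp in 65.2% of members.

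The largest differences in rank were at eel-1, osta-3 and zak-1. At eel-1, a HECT-type ubiquitin ligase, the weaker of 2 adjacent members had a signal of 99.3 and rank 239 in replicate 1, against 8.03 and rank 29051 in replicate 2. Both eel-1 members overlapped the same candidate of replicate 1. Such sharing of a candidate with another autosomal peak touched 13 members in replicate 1 and 10 in replicate 2. The peak at osta-3 had 59.0 (rank 752) in replicate 1 and 8.21 (rank 28440) in replicate 2. The peak at zak-1 had 9.26 (rank 27496) in replicate 1 and 40.0 (rank 1351) in replicate 2.

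**Figure D2:**
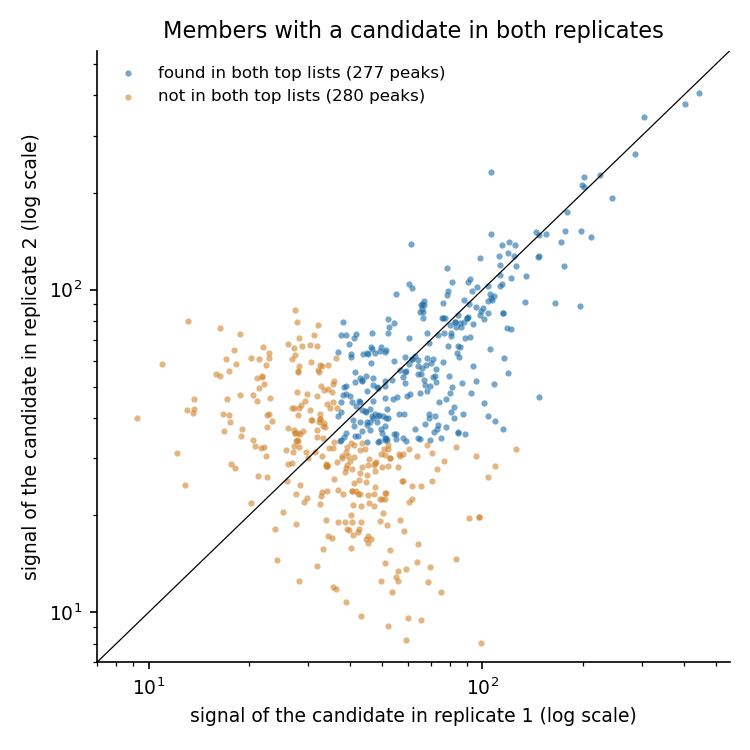
Signal of the overlapping candidate in replicate 1 (x) and replicate 2 (y), on log scales, for the 557 members with a candidate in both replicates. The line marks equal signal; members found in both top lists reach 446 and 407, whereas the others spread to low values in either replicate.

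Summits lay mostly upstream of the start and thinned out with distance. The median summit was 224 bp upstream of the nearest start, with quartiles of 434 and 86 bp. Of the 578 members, 507 (87.7%) lay upstream, 288 (49.8%) within the first 300 bp and 120 (20.8%) more than 500 bp upstream. The 100-bp interval with most summits, 101 to 200 bp upstream, held 113 members, and the first 100 bp upstream held 85. Downstream of the start, 37 members lay within 100 bp and 34 from 101 to 200 bp. Peaks at divergent promoters had a median of 139 bp, and 83.9% of them lay within 300 bp upstream. The rule itself limits how far a summit between divergent starts can be from the nearer start, so this difference was not tested.

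**Figure D3:**
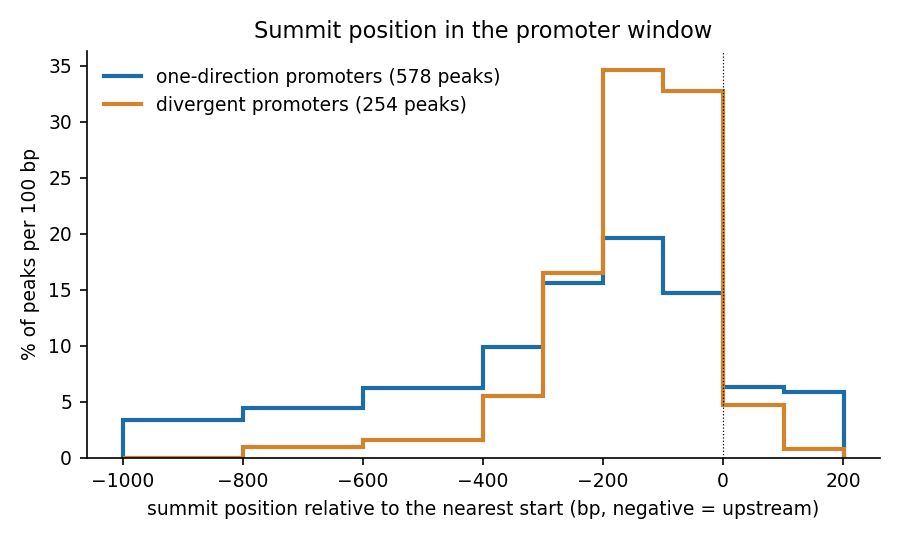
Share of peaks per 100 bp (y) by summit position relative to the nearest start (x, bp), for members at one-direction promoters and for peaks at divergent promoters. Both distributions are highest from 101 to 200 bp upstream, and 20.8% of members against 3.54% of divergent peaks lie more than 500 bp upstream.

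The annotation placed 400 summits (69.2%) between genes. A further 61 lay in an intron and 48 in a coding exon of the promoter's own gene, while 22 lay in its exons outside the coding sequence. The remaining 47 lay inside another gene, in an intron (20), an exon outside the coding sequence (18) or a coding exon (9). Members numbered 299 on the plus strand and 279 on the minus strand. The window of a single gene held 556 of them, and 22 lay in the windows of 2 genes.

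Several genes had more than 1 member. Of the 577 genes with a member in their window, 22 had at least 2. The highest summed signal, 516, was at gbas-1, from a peak 991 bp upstream (339) and another 254 bp upstream (177). At srh-2, a chemoreceptor gene, 3 members of 151, 129 and 115 summed to 395. At cbp-1 the peak of 306 lay 886 bp upstream of a start, and a second of 68.7 lay 153 bp upstream. Some of these lay at different starts of the same gene, and adjacent peaks can share the same enriched region.

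Members lay often at genes followed closely by another gene on the same strand, the arrangement found within operons. The next gene downstream lay on the same strand within 500 bp in 174 members, or 30.1% (interval 26.5 to 34.0). Among all 13214 autosomal genes whose promoter is one-direction 224 bp upstream of the start, the share was 18.2% (17.6 to 18.9). Where the promoter window overlapped no promoter window of the other strand the shares were 30.8% of members (26.9 to 35.0) and 17.9% of genes (17.3 to 18.6). It was 30.7% of the 277 members found in both replicates. No test was run, as gene arrangement follows the kinds of genes in a set. The upstream neighbour lay on the same strand for 65.2% of members (61.3 to 69.0) and for 65.2% of the 13214 genes (64.4 to 66.0). It lay on the opposite strand for 30.6% of members (27.0 to 34.5) and 27.1% of these genes (26.4 to 27.9). In the remaining 4.15% of members the start lay inside another gene. Same-strand neighbours upstream were closer at members, with a median gap of 540 bp, against 791 bp over the genes. The summits of 26 members lay beyond the near end of the upstream neighbour.

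A member lay in the promoter window of 577 of 17242 autosomal protein-coding genes, or 3.35%, and the gene lists were read against that share. The lists were chosen with earlier results of these data known, so they were given no test. Each list was made from patterns of gene symbols, so genes of the same kind under other names are missed. A symbol can also bring in a gene of another kind. Members were spread over all autosomes, from 26.8 members for each 1000 genes on chromosome V to 41.7 on chromosome III. Genes known by a sequence name alone made up 32.8% of genes with a member and 44.5% of all genes.

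The ubiquitin pathway and the large ribosomal subunit had the highest shares of the 24 lists. The shares are over all genes of a list, although a peak at a divergent promoter is not a member. Such a peak lay at 4 ubiquitin pathway, 13 large-subunit, 14 small-subunit and 16 chaperone genes. In the ubiquitin pathway list, 17 of 71 genes had a member (23.9%, interval 15.5 to 35.0), with a median signal of 81.2, against 91.7 over all genes with a member. After cdc-48.1 the strongest were cul-4, a cullin scaffold of ubiquitin ligases, at 183, with 85.4 and 66.6 in the replicates, and ubl-5, a ubiquitin-like protein, at 135. The polyubiquitin gene ubq-1 had 117, with 41.6 and 51.9 in the replicates. Of these 17 genes, 9 had a member found in both replicates, so the count rests in part on weak peaks. Among the 990 strongest peaks the share of the list was 8.45%, against 1.60% of all genes. There the large ribosomal subunit list was higher, at 15.2%.

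Of 46 genes that the large ribosomal subunit list holds, 8 had a member (17.4%, 9.09 to 30.7), with a median signal of 118. After rpl-3 and rpl-35 came rpl-24.2 at 189 and rpl-29 at 119.7. In the small subunit 3 of 31 genes had a member (9.68%, 3.35 to 24.9), namely rps-28 at 198, rps-24 at 103 and rps-17 at 95.6. At rps-28 the replicates gave 148 and 46.4. Another 13 large-subunit and 14 small-subunit genes had a peak at a divergent promoter, which is not counted here. Translation factors had a member at 4 of 36 genes (11.1%), with eif-3.C (258), eif-3.B (202) and eif-3.G (85.6) of the initiation factor eIF3 and eif-2Bdelta (67.3) of the exchange factor eIF2B. The tRNA synthetase list had 2 of 32 (6.25%, 1.73 to 20.1), fars-3 (82.3) and vars-1 (72.5), neither found in both replicates.

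Chaperones had a member at 6 of 67 genes (8.96%), led by the DnaJ protein dnj-9 (229), the co-chaperone sti-1 (155), calreticulin, crt-1 (133), and the prefoldin subunit pfd-6 (118). The proteasome list had 2 of 33 (6.06%, 1.68 to 19.6), rpn-11 (158) and rpt-6 (111), both found in both replicates. Splicing factors and Sm proteins had 6 of 63 (9.52%), with mog-4 (232), snrp-3 (152), snr-4 (144) and rsp-6 (88.8) highest. At snr-4 the replicates gave 61.2 and 139. RNA polymerase subunits and basal factors had 6 of 74 (8.11%), with rpb-11 followed by rpac-19 (141), taf-12 (111) and cdk-7 (95.1). The nuclear pore and transport list had 4 of 40 (10%), namely npp-8 (183), ima-2 (130.0), npp-20 (106) and imb-3 (75.5). Vesicle transport had 8 of 83 (9.64%), with sec-61.G followed by sec-24.1 (182), vps-22 (161) and vps-25 (135). The member of 161 is not the vps-22 member at the threshold. Its summit lay 620 bp upstream of vps-22 and nearer to C27F2.9, 69 bp upstream of that start.

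In the list of nuclear genes of the mitochondrial ribosome and respiratory chain 7 of 105 had a member (6.67%, 3.27 to 13.1). The complex I genes nduf-11 and ndus-8 had a member too, but their symbols are not in this list. After cox-5A the highest were cox-5B (198), mrpl-28 (181) and cyc-1 (162). The cell cycle and replication list had 4 of 82 (4.88%), of which pcn-1, the sliding clamp PCNA, had 182 and cdc-73, which its name brought into the list although it encodes a subunit of the Paf1 complex, had 73.4. The vacuolar ATPase list had 1 of 17, vha-13 (74.1).

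In the remaining 10 lists the share was 4.07% or lower. Nuclear hormone receptors had 10 of 246 (4.07%, 2.22 to 7.32), led by nhr-156 (154), nhr-180 (104), nhr-119 (92.5) and nhr-49 (91.7). Only nhr-156 and nhr-180 of these 10 were found in both replicates. Homeobox genes had 2 of 70, ceh-83 and the Hox gene lin-39 (102, with 43.6 and 52.4 in the replicates). The F-box list had 7 of 305 (2.30%), with fbxb-97 (213), fbxb-72 (134) and fbxa-85 (113) after fbxc-19. It does not hold fbxl-2, which had a member of 256. Histone genes had 1 of 68, his-37, and another 10 had a peak at a divergent promoter. The sperm list had 2 of 74, spe-5 (91.6) and spe-36 (79.0), and neuropeptides and insulin-like peptides had 1 of 108, ins-13 (69.6). Cytochrome P450 and UDP-glucuronosyltransferase genes had 1 of 130, cyp-33C5 (66.9). Chemoreceptors had 4 of 1276 (0.313%, 0.122 to 0.803), with srz-62 (91.9), srw-67 (71.3) and str-141 (66.3) after srh-2. No member lay at any of 146 cuticle collagen genes or 237 C-type lectin genes, and the Wilson intervals allow shares of up to 2.56% and 1.60%.

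**Figure D4:**
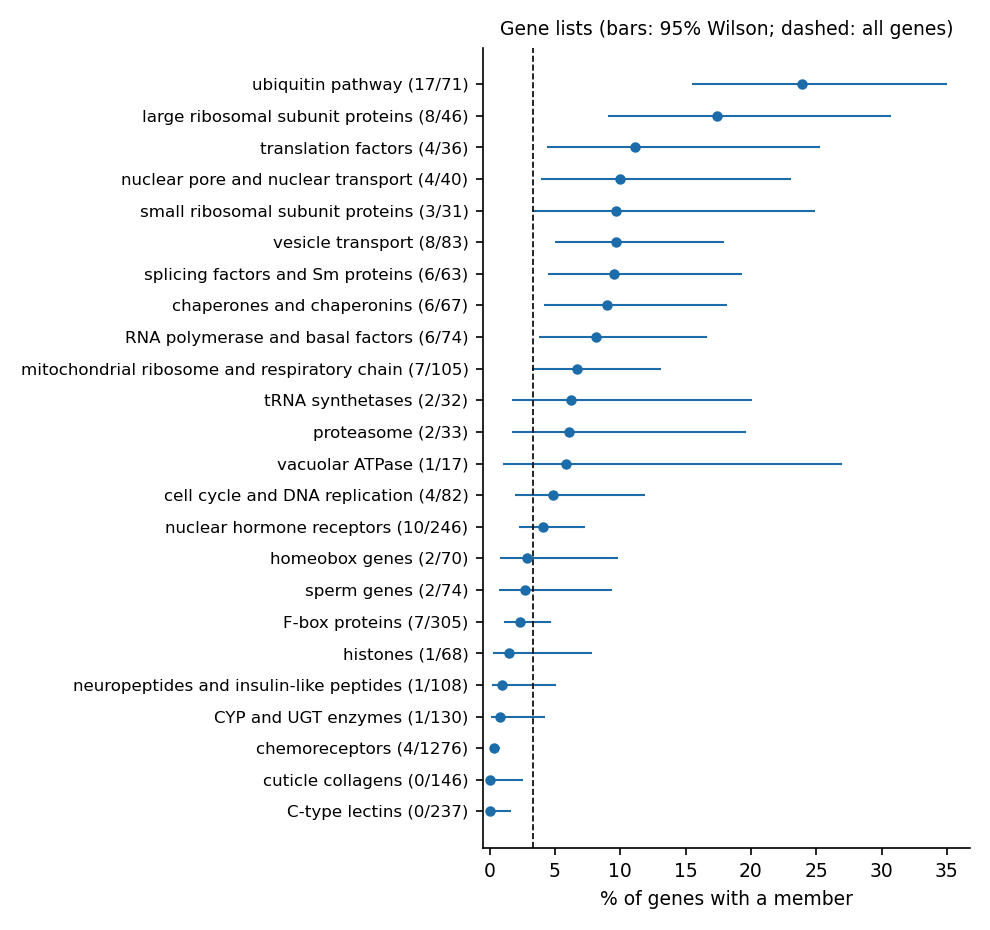
Share of the genes in each of 24 lists with a member in the promoter window (points, with 95% Wilson intervals), beside the share over all autosomal protein-coding genes (dashed line, 3.35%). The ubiquitin pathway list is highest at 23.9%, and collagens and C-type lectins are at 0.

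The summits were richer in G and C than the sequence on either side. Windows of 101 bp at summits held 45.4% ± 8.25 G or C (SD, 578 windows), against 34.6% ± 8.43 in windows centred 300 bp upstream and 36.3% ± 8.96 in windows 300 bp downstream. The summit exceeded both flanks in 396 members (68.5%). Promoters of the 13214 genes averaged 33.9% and the autosomes 35.5%. Summits at divergent promoters averaged 47.7% and those inside gene bodies 44.0%. Counts of words depend on base composition, and its part in the results below was not tested.

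**Figure D5:**
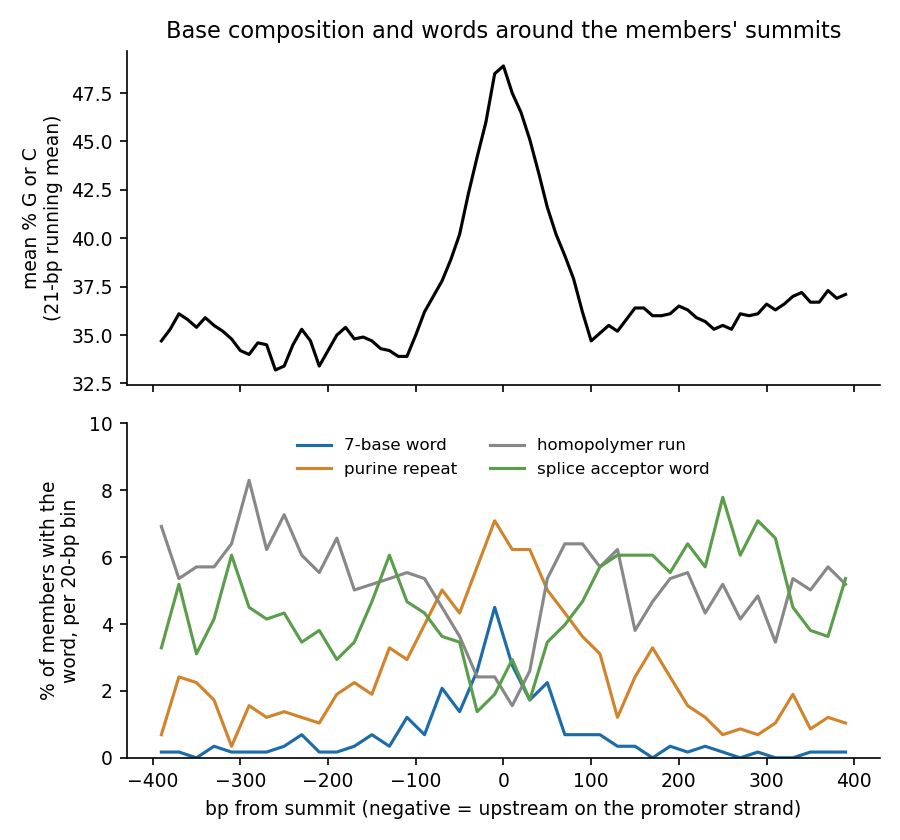
Mean percentage of G or C as a 21-bp running mean (top) and share of members with a word in each 20-bp bin (bottom) from 400 bp upstream to 400 bp downstream of the summit, over 578 members; 7-base word is CTGCGTC, purine repeat GAGAGA, homopolymer run TTTTTTT and splice acceptor word TTTCAG. G or C peaks at 48.9% at the summit, where the first 2 words are highest and the other 2 low.

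Of 13 words compared between summits and both flanks, 4 were more frequent at summits and 4 less frequent. Tests were two-sided exact McNemar tests within members, keeping the larger p of both flanks, with Benjamini-Hochberg adjustment over the 13 words. The 13 words were chosen with earlier results of these data known. Their p-values here and below are therefore not independent support. CTGCGTC lay within 50 bp of 69 summits (11.9%, 9.54 to 14.8), against 5 upstream and 1 downstream windows (adjusted exact p = 6.0e-15). In windows of the same length it occurred in 1.33% of one-direction promoters and 0.817% of the autosomes. Its median distance from the summit was 15 bp. It lay forward on the promoter strand in 35 members, reverse in 33 and both ways in 1. Of 72 matches, 60 were followed by TC, so the word was usually part of CTGCGTCTC.

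GAGAGA lay at 126 summits (21.8%, 18.6 to 25.3), against 34 upstream and 29 downstream windows (adjusted exact p = 9.5e-14), and in 6.70% of one-direction promoters. It was forward in 56 members, reverse in 69 and both in 1. Both words occurred together in 37 members, and either in 158 (27.3%). They can share bases, because CTGCGTC followed by TCTC holds TCTCTC, as at sec-61.G. How many of the 37 members owe both words to such an overlap was not counted. Members with CTGCGTC had a median signal of 95.6 and those with GAGAGA 88.4, against 91.8 for members with neither. CTGCGTC was at 22 of the 145 members with the highest signal (15.2%) and at 12 of the 145 with the lowest (8.28%), and GAGAGA was at 26 (17.9%) of each. These differences were not tested. CTGCGTC members were found in both replicates in 39 of 69 cases (56.5%, 44.8 to 67.6), against 199 of 420 (47.4%, 42.7 to 52.2) with neither word.

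The GC box GGGCGG was at 30 summits (5.19%) against 13 upstream and 9 downstream windows (adjusted exact p = 0.0214). TGACGT, the centre of the site of CREB and ATF proteins, was at 34 (5.88%) against 15 and 8 (adjusted exact p = 0.0172). With flanks 500 bp away GGGCGG had an adjusted exact p of 0.100 and TGACGT 0.228. TGACGT also missed the threshold using only replicate 1 (adjusted exact p = 0.128), within 100 bp of the summit (0.0536), among the 990 strongest peaks (0.246) and among members found in both replicates (0.298). The splice acceptor word TTTCAG was at 57 summits (9.86%), against 111 and 145 windows (adjusted exact p = 4.0e-05). TTTTTTT was at 65 (11.2%) against 160 and 110 (adjusted exact p = 0.00111), and it missed the threshold with the narrower promoter window of 500 to 100 bp (adjusted exact p = 0.105), among the 990 strongest peaks (0.253) and among members found in both replicates (0.193). The TATA word TATAAA was at 31 (5.36%) against 56 and 63 (adjusted exact p = 0.0210), with an adjusted exact p of 0.141 using only replicate 1.

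Words of homeodomain proteins were not enriched at the summits. The core TAATTA lay at 14 summits (2.42%, 1.45 to 4.02), against 28 upstream and 44 downstream windows, which missed the threshold (adjusted exact p = 0.0556). It occurred in 6.40% of one-direction promoters and 4.64% of the autosomes. Using only replicate 2 its adjusted exact p was 0.0385, in the direction of fewer at summits. TAATCA, a word of paired-type homeodomains, lay at 19 summits (3.29%) against 38 and 37 windows (adjusted exact p = 0.0361). It missed the threshold under 6 alternatives, with adjusted exact p of 0.102 using only replicate 2, 0.141 using only replicate 1, 0.331 with flanks 500 bp away, 0.604 among the 990 strongest peaks, 0.117 within 100 bp of the summit and 0.197 among members found in both replicates. That these words are rare here says nothing about whether DUXL-1 was present.

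The E-box CACGTG (3.46% of summits), the GATA word TGATAA (6.57%), the heat shock core TTCNNGAA (3.81%) and CCAAT (15.7%) missed the threshold. Their adjusted exact p-values were 0.237, 0.282, 0.106 and 1. Within 100 bp of the summit CACGTG passed, at 7.44% of summits (adjusted exact p = 0.00580) and more often than in the flanks.

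Among all words of 6 bases, each counted with its reverse complement, 165 (7.93%) were more frequent and 85 (4.09%) less frequent at summits than in both flanks (exact McNemar, adjusted p under 0.05). Of the 165, 111 (67.3%) contained CG, against 604 (29.0%) of all words, and none of the 85 did. Of the 85, 29 were made of A and T alone, of 36 such words in all. The word with the smallest p, GACGCA, is part of the reverse complement of CTGCGTC. It lay at 103 summits, against 13 and 9 windows (adjusted exact p = 1.7e-16). AACGCG lay at 80, against 8 and 10 (adjusted exact p = 1.7e-12).

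The word content of member summits could not be told from that of divergent promoters with these tests. None of the 13 words passed two-sided Fisher exact tests adjusted over the 13 words, and none had an unadjusted p under 0.05. CTGCGTC was at 11.9% of member summits and 9.45% of divergent summits, a difference of 2.49 percentage points (Newcombe interval -2.37 to 6.67). GAGAGA was at 21.8% and 16.1%, a difference of 5.66 points (-0.284 to 11.0). The intervals leave room for differences of several points either way for CTGCGTC. With peaks taken from replicate 1 alone, TGATAA (9.19% of members, 2.98% of divergent peaks) and GGGCGG (4.60% and 10.2%) passed.

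Against peaks inside gene bodies no word passed either, and 2 had an unadjusted p under 0.05. CTGCGTC was at 11.9% of member summits and 6.30% of gene body summits, a difference of 5.64 points (1.36 to 9.36, adjusted Fisher exact p = 0.0674). It passed with peaks from replicate 2 alone (11.3% and 3.64%, adjusted Fisher exact p = 0.000451), from replicate 1 alone (11.0% and 5.44%, 0.0308) and with the narrower promoter window (13.3% and 5.56%, 0.00314). CCAAT was at 15.7% of members and 23.3% of gene body peaks (adjusted Fisher exact p = 0.0674). GAGAGA was at 21.8% and 20%, a difference of 1.80 points (-4.27 to 7.40). It passed with peaks from replicate 2 alone (22.4% and 15.4%, adjusted Fisher exact p = 0.0328), whereas among the 990 strongest peaks its difference was -11.9 points (adjusted Fisher exact p = 0.612). CCAAT passed, as lower in members, with the narrower window (14.7% and 22.5%, adjusted Fisher exact p = 0.0257) and with replicate 2 alone (0.0328). TTTCAG passed, as lower in members, with replicate 1 alone (9.19% and 16.3%, adjusted Fisher exact p = 0.0308), replicate 2 alone (0.0328) and the narrower window (0.0257). GGGCGG passed, as higher in members, with the narrower window (6.85% and 2.63%, adjusted Fisher exact p = 0.0257) and replicate 2 alone (0.0279). TGACGT passed, as higher in members, with replicate 2 alone (6.55% and 2.80%, adjusted Fisher exact p = 0.0328).

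Longer runs recurred as well, as the sequences printed above show for a few genes. The 10-base runs held by most summit windows were collected in turn, each masked before the next was taken, down to 12 windows. This gave 5 runs, at least 1 of which lay in 102 members (17.6%). They were read from these sequences, so they were given no test. The first, GAGACGCAGA, is the reverse complement of TCTGCGTCTC and lay at 52 summits, with 1 upstream and 1 downstream window. It was at 9.00% of member summits and 7.09% of divergent summits. It occurred 3132 times on the autosomes, and 123 of these sites (3.93%) lay within 50 bp of a thresholded summit.

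TCCGAGAGGA lay at 21 summits, in no upstream window and in 1 downstream window. Of its 424 autosomal sites, 35 (8.25%) lay within 50 bp of a thresholded summit. The 21 members had signals from 76.2 to 299.6 with a median of 128, and 16 of them were found in both replicates. Their genes included F48A11.4, cept-2, the calponin gene cpn-3 and the nucleoporin gene npp-8. At npp-8 the pooled signal was 183, with 116 in replicate 1 and 61.6 in replicate 2. At cept-2 it was 239, with 122 and 109. The run lay at 3.63% of member summits, at 12 divergent summits (4.72%) and at none of the 270 gene body summits.

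AAACGCGCCA lay at 13 summits (2.25%) and in neither flank, and at 11 divergent summits (4.33%). It had 156 autosomal sites, of which 29 (18.6%) lay within 50 bp of a thresholded summit and 46 (29.5%) within 50 bp of any pooled candidate. Signals of the 13 ranged from 70.4 to 258 with a median of 114, and 8 were found in both replicates. Their genes included eif-3.C, the RNA-binding protein fust-1 (228, with 134 and 91.9 in the replicates), cyc-1 of complex III, npp-20 and the complex I genes nduf-11 and ndus-8. AAGTGCGCCA lay at 14 summits (2.42%) and at 1.97% of divergent summits. It had 125 autosomal sites, 21 of them (16.8%) at thresholded summits, and its genes included ntl-11, pcn-1, cyc-1 and timm-17B.1 of mitochondrial import. CGGTGTTTGC lay at 12 summits (2.08%) and at 3.54% of divergent summits, with 24 of 1103 sites (2.18%) at thresholded summits. In the flanks the most frequent runs were runs of A with 1 other base, in 29 upstream and in 15 downstream windows.

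The words GCGTGTT and AAGTGT, printed above for the 4 strongest members that hold both, were described after their windows had been read and were given no test. GCGTGTT lay at 24 summits, against 3 upstream and 6 downstream windows. It was in 7 of the 25 strongest members, 6 of the next 75 and 11 of the remaining 478. AAGTGT lay at 53 summits, against 30 and 32 windows, and was in 4, 6 and 43 of the same sets. Both words together lay at 7 summits, those of rpl-3, rpl-35, cdc-48.1, cox-5A, Y73F8A.27, wdr-46 and spas-1, in 0 upstream windows and in 1 downstream window.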

How the data were processed

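Chromatin immunoprecipitation with an anti-GFP antibody was sequenced in 2 biological replicates of 1 group. Candidate and thresholded peak lists were deposited by the authors, per the file headers and README files. The signal of each region is the deposited enrichment, and the deposited −log10 q value shares a ceiling, so it was not used. The sources used here do not name the aligner, the peak caller or their versions. The authors' list is named as thresholded on reproducibility. It holds the 1980 pooled candidates with the highest signal, so for each peak it amounts to a cut on pooled signal. A member need not be strong in both replicates. Analyses used ce11 lists, the WBcel235 sequence and the Ensembl annotation. Starts came from protein-coding transcripts, and the alternative of all transcripts of such genes gives 581 members. The 13 words were searched on both strands in 101-bp windows. Genes were named by a rule covering the 25 strongest members found in both replicates, up to 4 genes of each of 24 lists, the threshold's edge, genes with several members and the 3 largest rank differences. Members, lists and the 13 words were chosen with earlier results of these data known. The pattern for large ribosomal proteins was corrected afterwards, to leave out replication protein A genes. The word test was tried on simulated sequence with planted words. Its base composition was the same at summits and flanks, unlike that of the real windows. The simulation therefore does not cover effects of composition. Nothing in the labels says that the replicates came from separate cultures beyond calling them biological. Software was scipy 1.17.1, statsmodels 0.14.6, pandas 2.3.3, numpy 2.4.6 and matplotlib 3.10.9 under Python 3.11.15.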

Additional observations from a re-analysis of the deposited data

How the results depend on the processing

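Using the candidates of 1 replicate at a time left 544 to 550 members at 533 to 544 genes, with 46.7 to 48.5% within 300 bp upstream, 64.0 to 65.1% with an upstream neighbour on the same strand and 27.6 to 29.4% with a close gene downstream. It gave 3 to 4 words more and 2 to 4 less frequent at summits, 5.19 to 5.72% of all words of 6 bases higher and 2.98% lower, and 0 to 2 and 2 to 6 words that differed from divergent promoters and gene bodies. Of the 578 members, 341 lay within 50 bp of a summit of such a member in replicate 2 and 346 in replicate 1. With the 990 strongest peaks there were 266 members at 276 genes, 83.1% of them found in both replicates and 58.3% within 300 bp, with 2 words less frequent, and 4.18% of the words of 6 bases higher and 1.49% lower. With the promoter window of 500 to 100 bp, 69.3% lay within 300 bp, 58.3% had a same-strand upstream neighbour and 4 words differed from gene bodies. The share found in both was 35.3% at a reciprocal overlap of 50%, 27.0% with the top 1000 and 96.4% with all 30000 candidates. Flanks 500 bp away left 2 words more frequent. Among members found in both replicates, an alternative chosen after seeing the data, 2 words were less frequent, with 3.99% of the words of 6 bases higher and 1.44% lower. Smaller sets of peaks give the tests less power, and why the numbers of calls fell was not tested. Against the flanks, CTGCGTC and GAGAGA passed under each alternative run. No paired analysis was possible because the samples form a single group. Read depth is unknown, so what it limits could not be assessed.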
